A study of Mus musculus with 12 samples.

Results

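The genes described here encode 10 proteins of the contractile apparatus of heart muscle, Myl7, Tnni1, Actc1, Tnnt2, Myh6, Myh7, Myl4, Myl3, Ttn and Tnnc1. They were chosen by name and located among the deposited merged loci through the lengths of the exons and introns of their transcript models. The 10 genes fell in 9 of 40039 loci, because Myh6 and Myh7, which are neighbours, had been merged into 1 locus. The count table allowed a test of 8 of the 9 loci, among 23991 loci tested in all. RNA selected for poly(A) was sequenced from mouse embryonic stem cells of strain C57BL/6J in 12 libraries, 3 per group. The groups were Notch1-/- cells on day 6 of cardiac differentiation in hanging drops, where aggregates called embryoid bodies form, WT cells on day 6, Notch1-/- cells on day 0, before differentiation, and WT cells on day 0. Stem cells of both genotypes had been kept either on fibroblast feeders or on gelatin, in medium with LIF, and which applied to which library is not given in the sources used here. Which part of Notch1 was deleted, and whether replicates came from separate clones or cultures, is likewise not given, so every p-value here measures the spread between libraries, which may be technical.

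A sarcomere slides actin-based thin filaments past myosin-based thick filaments. Calcium binding to troponin C moves troponin T, troponin I and tropomyosin on the thin filament so that myosin heads, each carrying a pair of light chains, can bind actin, and titin spans the structure as a spring. Hearts switch isoforms as they develop, with Tnni1, Myl4 and Myl7 being typical of the embryonic heart or the atria, and the first beating cells of mouse embryoid bodies usually appear about a week after aggregation. Notch1 is a receptor for signals between neighbouring cells.

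Libraries held 100637179 to 134662426 counts. The labels were checked on Notch1, which had 6.8, 4.9 and 4.95 CPM (counts scaled to library size with TMM factors) in Notch1-/- cells on day 6, against 38, 30.8 and 31.1 CPM in WT cells on day 6. It had 3.8, 3.87 and 4.59 CPM in Notch1-/- cells on day 0, against 61.6, 24.7 and 34 CPM in WT cells on day 0. The change was -2.58 on the log2 scale on day 6 (SE 0.30, adjusted p = 6.79e-05) and -3.29 on day 0 (SE 0.30, adjusted p = 3.89e-05). Fold changes are log2 values fitted to the counts by edgeR. A change was called where its quasi-likelihood p, adjusted by Benjamini-Hochberg over all loci tested, was under 0.05. Values from other tests are named as such.

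On day 6, 3 of the 9 loci were expressed in Notch1-/- embryoid bodies and 1 of the 9 in WT embryoid bodies, where expressed means at least 1 CPM per kilobase (kb) of merged exon length in all 3 libraries. Tnnc1, with 0 counts in every library, could not pass by this rule and was not among the loci tested. Of all loci tested, 36% reached that level in Notch1-/- and 37.1% in WT embryoid bodies. The expressed loci were Myl7, the regulatory light chain of the atria, Actc1, cardiac alpha-actin, and Myl4, the essential light chain of atria and embryonic heart, in Notch1-/- cells. In WT cells it was Tnni1, slow skeletal troponin I, which the embryonic heart uses. None of the 9 reached 5 CPM per kb in all libraries of either genotype. By the deposited FPKM, with at least 1 in all 3 libraries, Myl7, Actc1, Myl4 and Tnnc1 passed in Notch1-/- cells (4 of 9), and Myl7, Tnni1, Tnnt2, Myl3 and Tnnc1 in WT cells (5 of 9). The share of all loci passing by FPKM was not counted. The median over all loci tested was 0.638 FPKM in Notch1-/- and 0.701 FPKM in WT embryoid bodies.

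Myl7 had 6.64, 1.96 and 2.69 CPM per kb in Notch1-/- embryoid bodies, against 0.435, 0.391 and 0.416 in WT embryoid bodies. Its mean stood at the 75.1th percentile of all loci tested in Notch1-/- and the 52.6th in WT embryoid bodies. Actc1 had a mean of 4.71 ± 1.5 CPM per kb in Notch1-/- embryoid bodies (SD, n = 3), at the 77.6th percentile, and 1.33 ± 0.825 in WT embryoid bodies (SD, n = 3), at the 64.5th. Tnni1 averaged 0.236 ± 0.148 in Notch1-/- and 2.05 ± 0.342 CPM per kb in WT embryoid bodies (SD, n = 3 each). The order of the means per kilobase in Notch1-/- embryoid bodies was Actc1, Myl7, Myl4, Tnnt2, Tnni1, Myl3, the merged Myh6/Myh7 locus and Ttn. In WT embryoid bodies it was Tnni1, Actc1, Myl4, Myl7, Tnnt2, Myl3, Myh6/Myh7 and Ttn. The ranges of neighbours in these orders overlapped, except between Myl4 and Tnnt2 and between Myh6/Myh7 and Ttn in Notch1-/- cells, and between Tnnt2 and Myl3 and between Myh6/Myh7 and Ttn in WT cells. Exon lengths are those of the merged models. The loci hold 15 kb of exon for Myl3, 7.5 kb for Tnnt2, 6.63 kb for Tnni1 and 2.84 kb for Myl7. That is more than the mature transcripts of these genes, so their level per kilobase is low for the counts. The Actc1 locus holds only 1.39 kb, so levels and orders per kilobase favour Actc1 over these loci. By mean deposited FPKM the orders differed. In Notch1-/- embryoid bodies Myl7 (13.1) lay above Actc1 (3.21). Percentiles by FPKM in Notch1-/- and WT embryoid bodies were 78.6 and 54.3 for Myl7, and 62.2 and 52.1 for Actc1. In WT embryoid bodies Actc1 (0.937) lay below Myl3 (2.16), Tnnt2 (1.25), Myl7 (1.23) and Myl4 (1.04).

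**Figure D1:**
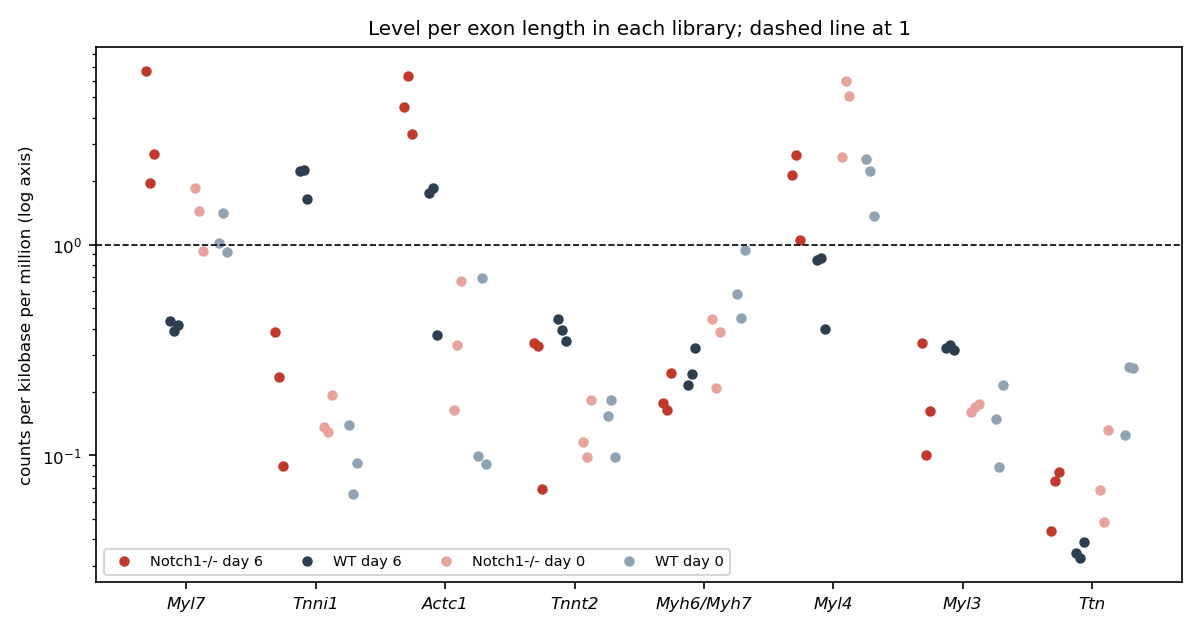
CPM per kb of merged exon length (log axis) of the 8 loci with counts, 1 point per library and 3 per group, in Notch1-/- and WT embryoid bodies of day 6 and stem cells of day 0, with the dashed line at 1. Myl7, Actc1 and Myl4 lie above the line in all 3 Notch1-/- day 6 libraries, and Tnni1 does so in all 3 WT day 6 libraries.

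The genotypes were compared on day 6 first. Of the 8 loci tested, 2 were higher and 1 was lower in Notch1-/- embryoid bodies, beside 28.1% of all loci called (13.7% higher and 14.4% lower). Myl7 and Myl4 rose, and Tnni1 fell. Counts of the genotypes did not overlap for 6 of the 8 loci, beside 59.2% of all loci. By limma on log2(FPKM + 1), 5 of 9 were called, beside 28.1% of all. The median log2 change was 0.26 over the 8 loci and 0.01 over all loci tested. In whole embryoid bodies, fewer cells of a type and less RNA per cell cannot be told apart.

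Among the thin filament genes, Tnni1 (chr1:137676011-137707566, plus strand, mm9) had 2.55, 1.56 and 0.588 CPM in Notch1-/- embryoid bodies, against 14.9, 14.9 and 11 CPM in WT embryoid bodies. All Notch1-/- libraries lay below all WT libraries, and the change was -3.12 (SE 0.46, adjusted p = 0.000395). Leaving out any library kept it between -3.65 and -2.72, with adjusted p of at most 0.0027. Its exons shared no length with another locus. The deposited FPKM showed the same order, with 1.27, 0.664 and 0.33 in Notch1-/- and 9.3, 8.46 and 6.8 in WT embryoid bodies.

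Actc1 (chr2:113873021-113878547, minus strand, mm9) had 6.25, 8.8 and 4.65 CPM in Notch1-/- embryoid bodies, against 2.45, 2.57 and 0.521 CPM in WT embryoid bodies. The groups did not overlap, but WT library 3 lay far below the other WT libraries, and the change of 1.83 was not called by counts (SE 0.76, adjusted p = 0.0925). It was called without WT day 0 library 2 (1.81, adjusted p = 0.0305), and by limma on log2(FPKM + 1), with a change of 1.14 (SE 0.25, adjusted p = 0.00614). Acta1, skeletal alpha-actin and a close relative in sequence, had 5.33, 6.28 and 6.48 CPM per kb in Notch1-/- embryoid bodies, against 0.763, 1.1 and 0.507 in WT embryoid bodies. It rose by 2.93 (SE 0.42, adjusted p = 0.000315) and stood at about the level of Actc1 in Notch1-/- cells. How reads shared by these actin genes were divided in the counting is not given in the sources used here, which makes both values uncertain.

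Tnnt2 (chr1:137732963-137748961, plus strand, mm9), cardiac troponin T and the subunit that binds tropomyosin, had 2.57, 2.49 and 0.521 CPM in Notch1-/- embryoid bodies, against 3.34, 2.95 and 2.62 CPM in WT embryoid bodies. The groups did not overlap, though only Notch1-/- library 3 lay far below the rest, and the difference of -0.67 was not called (SE 0.48, adjusted p = 0.322). By limma on log2(FPKM + 1) the difference was called, at -0.53 (SE 0.15, adjusted p = 0.0264), and with a pseudocount of 0.1 it was not, at -1.16 (adjusted p = 0.057). Without Notch1-/- library 3 the counts differed by -0.22 (adjusted p = 0.703).

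Tnnc1 (chr14:32021498-32024897, plus strand, mm9), the calcium-binding troponin C of heart and slow muscle, had 0 counts in all 12 libraries. Its exons shared 97.9% of their length with the locus of Nisch on the opposite strand, which gives it no count test. The deposited FPKM of Tnnc1 was 6.85, 5.36 and 2.72 in Notch1-/- embryoid bodies, against 9.9, 9.14 and 7.11 in WT embryoid bodies. All Notch1-/- values were lower, with a change of -0.76 on the log2(FPKM + 1) scale (SE 0.24, adjusted p = 0.0369, limma). The strand setting of the counting is not given in the sources used here, so reads of Tnnc1 and Nisch cannot be told apart.

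Of the thick filament genes, Myl7 (chr11:5795485-5799432, minus strand, mm9) had 18.8, 5.55 and 7.63 CPM in Notch1-/- embryoid bodies, against 1.23, 1.11 and 1.18 CPM in WT embryoid bodies. Every Notch1-/- library exceeded every WT library, and Notch1-/- library 1 stood far above the others. The change was 3.18 (SE 0.43, adjusted p = 0.000228), and it was 2.50 without Notch1-/- library 1 (adjusted p = 0.000421). Its ventricular counterpart Myl2 had 0.835, 0.571 and 0.52 CPM per kb in Notch1-/- and 0.199, 0.222 and 0.224 in WT embryoid bodies. Myl2 rose as well, by 1.57 (SE 0.35, adjusted p = 0.00514), and stayed below Myl7 per kilobase in all 6 day 6 libraries.

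Myl4 (chr11:104411977-104448533, plus strand, mm9) had 3.53, 4.43 and 1.73 CPM in Notch1-/- embryoid bodies, against 1.41, 1.44 and 0.658 CPM in WT embryoid bodies. The counts did not overlap, and Myl4 rose by 1.47 (SE 0.43, adjusted p = 0.0239). That call was lost without Notch1-/- day 6 library 1 or 2, or WT day 6 library 1 or 3, with changes from 1.16 to 1.62 and adjusted p from 0.0506 to 0.102. The FPKM overlapped, at 2.74, 3.74 and 1.21 in Notch1-/- and 1.29, 1.25 and 0.586 in WT embryoid bodies (0.76, SE 0.32, adjusted p = 0.102, limma). Of its exon length, 46.5% is shared with a locus on the other strand.

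Myl3, the essential light chain of the ventricles (chr9:110646713-110699702, plus strand, mm9), had 5.13, 1.51 and 2.43 CPM in Notch1-/- embryoid bodies, against 4.82, 4.99 and 4.74 CPM in WT embryoid bodies. Notch1-/- library 1 was at the WT level and the others below it. The difference was -0.68 (SE 0.40, adjusted p = 0.226), and -1.29 without Notch1-/- library 1 (adjusted p = 0.028).

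The merged locus of Myh6 and Myh7 (chr14:55560477-55613386, minus strand, mm9), the alpha and beta myosin heavy chains that act as the motors, had 2.61, 2.4 and 3.59 CPM in Notch1-/- embryoid bodies, against 3.15, 3.56 and 4.76 CPM in WT embryoid bodies. The groups overlapped and did not differ beyond their spread (-0.42, SE 0.34, adjusted p = 0.386). The share of each of these genes in the merged counts was not measured.

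Ttn (chr2:76541928-76820604, minus strand, mm9) had 5.16, 8.9 and 9.86 CPM in Notch1-/- embryoid bodies, against 4.08, 3.84 and 4.57 CPM in WT embryoid bodies. The Notch1-/- counts were all higher, yet 0.94 was not called (SE 0.38, adjusted p = 0.0847). It was called without Notch1-/- day 0 library 3 (0.93, adjusted p = 0.0466). Ttn has 118 kb of merged exon, and its level per kilobase was 0.0437 to 0.0836 in Notch1-/- and 0.0326 to 0.0388 in WT embryoid bodies.

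**Figure D2:**
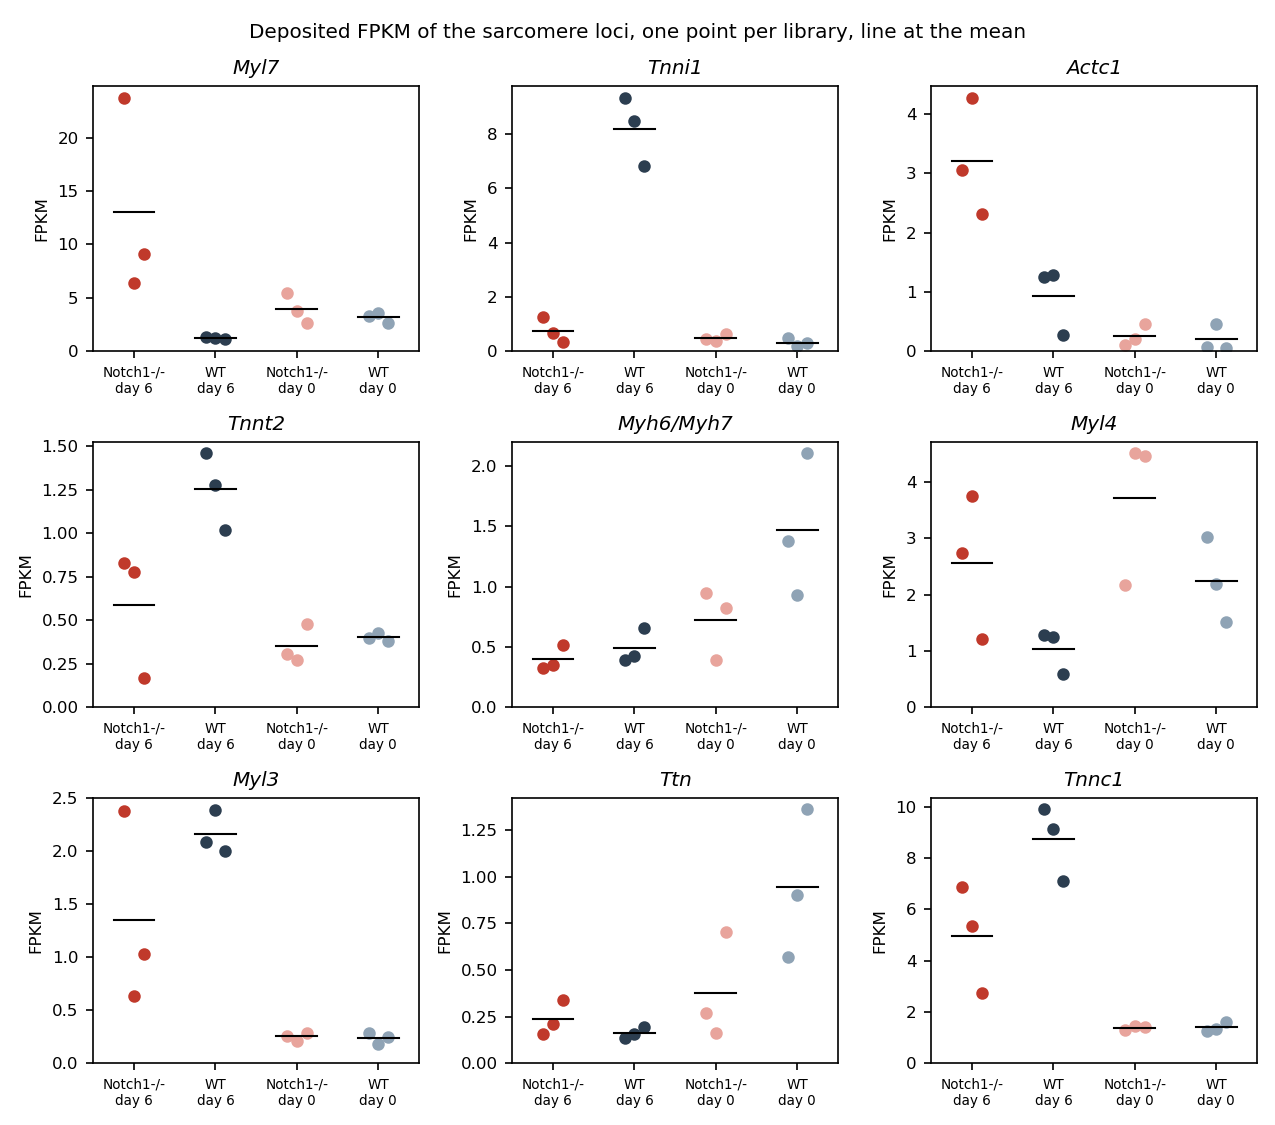
Deposited FPKM of the 9 sarcomere loci, with 1 point per library and a line at the mean of the 3 libraries of each group. Myl7 reaches 23.7 FPKM in a Notch1-/- day 6 library against at most 1.34 in WT day 6 libraries, and Tnni1 reaches 9.3 FPKM in a WT day 6 library against at most 1.27 in Notch1-/- day 6 libraries.

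Promoter windows are shown for Myl7 and Actc1, which had the highest levels per kilobase in Notch1-/- embryoid bodies, and for Tnni1, the expressed locus of WT embryoid bodies. The windows run from 250 bases before to 50 after the annotated start, from RefSeq on build GRCm38.p6, and are written 5′ to 3′ along the gene. All 10 genes had a window, and the first listed was taken where there were several. Capitals mark the CArG box, the site known for serum response factor, in Myl7 and Actc1, and GTGGGAA (a core known for the Notch effector RBPJ) and GGTGTG (a core known for T-box factors) in Tnni1.
Myl7, chr11:5898733-5899032, minus strand: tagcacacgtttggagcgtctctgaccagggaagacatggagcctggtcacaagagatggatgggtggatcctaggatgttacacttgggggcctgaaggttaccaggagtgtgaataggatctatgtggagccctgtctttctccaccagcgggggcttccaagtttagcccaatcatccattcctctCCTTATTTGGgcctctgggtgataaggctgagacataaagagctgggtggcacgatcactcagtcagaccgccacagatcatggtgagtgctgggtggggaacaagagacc
Actc1, chr2:114052826-114053125, minus strand: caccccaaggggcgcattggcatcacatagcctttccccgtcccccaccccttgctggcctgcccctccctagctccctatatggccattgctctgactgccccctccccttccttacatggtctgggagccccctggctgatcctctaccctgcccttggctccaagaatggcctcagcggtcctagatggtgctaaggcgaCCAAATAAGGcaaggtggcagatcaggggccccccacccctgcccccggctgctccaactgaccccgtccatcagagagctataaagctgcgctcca
Tnni1, chr1:135799171-135799470, plus strand: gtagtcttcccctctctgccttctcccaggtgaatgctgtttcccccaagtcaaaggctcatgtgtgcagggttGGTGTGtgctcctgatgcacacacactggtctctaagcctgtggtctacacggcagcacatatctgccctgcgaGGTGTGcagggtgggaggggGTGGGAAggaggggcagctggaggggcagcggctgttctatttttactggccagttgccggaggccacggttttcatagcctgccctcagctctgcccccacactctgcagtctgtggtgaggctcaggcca

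Both strands were searched for 5 motifs in the 10 windows, and no printed match overlapped another. A CArG box was found in 3 of 10, in Myl7 at bases -61 to -52 from the start, in Actc1 at -47 to -38 and in Myl3 at -85 to -76, and in 1.63% of all 32851 windows. GTGGGAA was found in 2 of 10, Tnni1 at -82 to -76 and Ttn, and in 6.38% of all windows. GGTGTG lay in the Tnni1 window at -176 to -171 and -102 to -97, and in 19% of all windows. AGATAA, a core known for GATA factors, lay in the Tnnt2 window and in 11.2% of all, and the MEF2 site in the Ttn window and in 3.19% of all. These matches describe letters and are no measure of binding.

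On day 0 the genotypes were compared before differentiation. Of the 8 loci, 1 was called, Ttn, which was lower in Notch1-/- cells, beside 9.56% of all loci (3.71% higher and 5.86% lower). Ttn had 8.05, 5.72 and 15.6 CPM in Notch1-/- stem cells, against 14.7, 31 and 30.8 CPM in WT stem cells. Notch1-/- library 3 lay just above WT library 1, so the groups overlapped, and the change was -1.38 (SE 0.38, adjusted p = 0.0396). The call was lost without Notch1-/- day 6 library 2, any WT day 6 library, Notch1-/- day 0 library 1 or 2, or WT day 0 library 2 or 3, with changes from -1.38 to -1.10 and adjusted p from 0.0521 to 0.15. By limma on log2(FPKM + 1), 0 of 9 members were called, beside 7.58% of all loci.

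With the replicate number as a block, with pairs of libraries taken from the replicate numbers, 3 of the 8 loci were called on day 0, beside 13.9% of all loci. Ttn was at -1.40 (adjusted p = 0.0133), the Myh6/Myh7 locus at -0.90 (adjusted p = 0.0394) and Myl4 at 1.22 (adjusted p = 0.0459). Without the block, Myh6/Myh7 had 6.52, 3.08 and 5.64 CPM in Notch1-/- stem cells, against 8.53, 6.55 and 13.8 CPM in WT stem cells (-0.92, SE 0.34, adjusted p = 0.103). It was called without WT day 0 library 2 (-1.13, adjusted p = 0.0338). Myl4 had 4.31, 9.88 and 8.41 CPM in Notch1-/- stem cells, against 4.2, 3.71 and 2.27 CPM in WT stem cells (1.15, SE 0.43, adjusted p = 0.106). It was called without Notch1-/- day 0 library 1 (1.44, adjusted p = 0.036). These 2 of the 8 loci had counts that did not overlap between the genotypes, beside 20.6% of all loci.

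Myl7, Tnni1, Actc1, Tnnt2 and Myl3 were not called on day 0, with changes from -0.13 to 0.62 and adjusted p of 0.373 or more. By the rule of 1 CPM per kb, Myl4 was the locus expressed in all libraries of both genotypes on day 0. It had 2.61 to 5.97 CPM per kb in Notch1-/- and 1.37 to 2.54 in WT stem cells. By FPKM of at least 1, Myl7, Myl4 and Tnnc1 passed in both genotypes on day 0. Myl7 had 0.937 to 1.85 in Notch1-/- and 0.919 to 1.41 CPM per kb in WT stem cells.

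**Figure D3:**
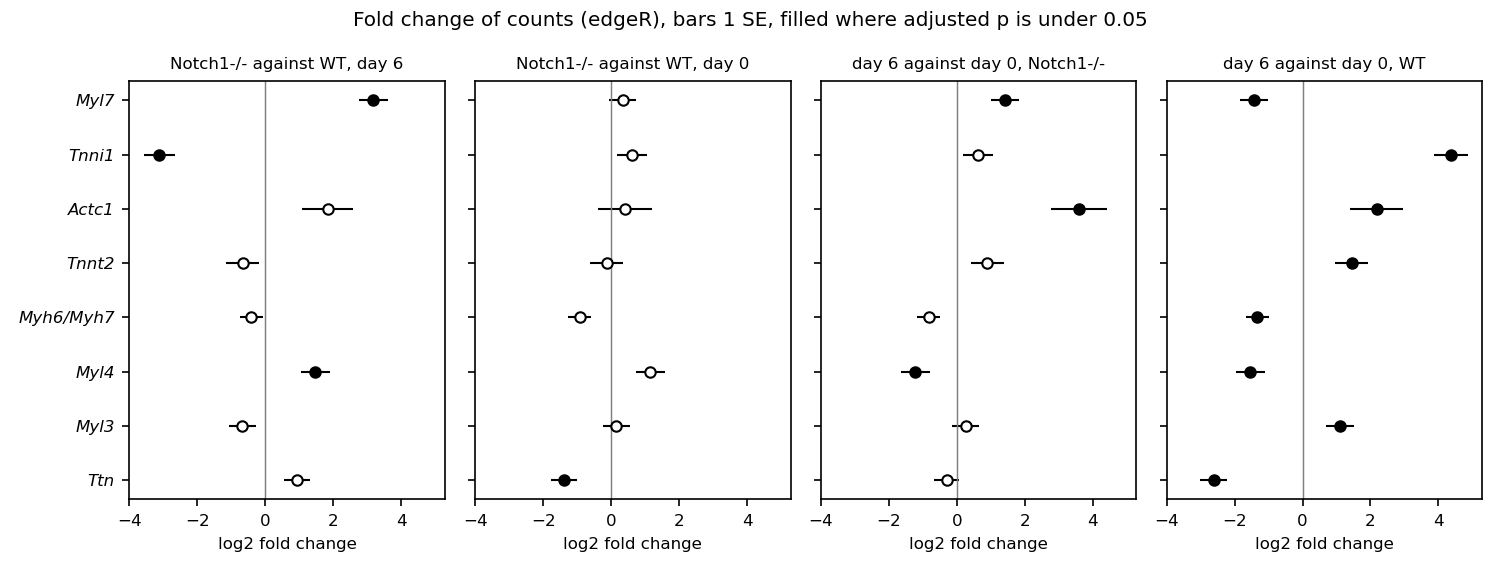
Log2 fold change of counts (edgeR) of the 8 loci in 4 comparisons, with bars of 1 SE and filled points where the adjusted p is under 0.05. Myl7 and Tnni1 lie on opposite sides of 0 in the day 6 genotype panel (3.18 and -3.12), and they swap sides in the panel of WT cells (-1.43 and 4.37).

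Differentiation was then followed within each genotype. In Notch1-/- cells, day 6 against day 0, 2 of 8 loci rose and 1 fell, beside 35.9% of all loci called (17.2% higher and 18.7% lower, or 13.4% and 22.7% under upper quartile scaling). Counts of the days did not overlap for 2 of 8, beside 49.3% of all loci, and limma on log2(FPKM + 1) called 4 of 9, beside 31.7% of all. Actc1 rose by 3.59 (SE 0.83, adjusted p = 0.00514), with 6.25, 8.8 and 4.65 CPM on day 6, against 0.228, 0.466 and 0.942 CPM on day 0. Every day 6 library lay above every day 0 library, and the call held in all 20 alternatives (changes from 1.73 to 4.21).

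Myl7 rose by 1.41 (SE 0.41, adjusted p = 0.0165), with 18.8, 5.55 and 7.63 CPM on day 6, against 5.26, 4.1 and 2.66 CPM on day 0. Day 6 library 2 stood only a little above day 0 library 1. Without Notch1-/- day 6 library 1 the change was 0.73 (adjusted p = 0.121), and without Notch1-/- day 0 library 3 it was 1.17 (adjusted p = 0.0711). Myl4 fell by 1.22 (SE 0.43, adjusted p = 0.04), with overlapping counts of 3.53, 4.43 and 1.73 CPM on day 6, against 4.31, 9.88 and 8.41 CPM on day 0. That call was lost without Notch1-/- day 6 library 1 or 3, WT day 6 library 1 or 2, or Notch1-/- day 0 library 2 or 3 (changes from -1.28 to -0.91, adjusted p from 0.0521 to 0.138).

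Tnni1 was at 0.63 (SE 0.44, adjusted p = 0.286) and Tnnt2 at 0.90 (SE 0.49, adjusted p = 0.169) in Notch1-/- cells, day 6 against day 0. Without Notch1-/- day 6 library 3, the low one, both were called, Tnni1 at 1.03 (adjusted p = 0.0441) and Tnnt2 at 1.36 (adjusted p = 0.0126). Myh6/Myh7 was at -0.82 (adjusted p = 0.0748), and it was called without Notch1-/- day 0 library 2 (-1.09, adjusted p = 0.0274). By limma on log2(FPKM + 1), Tnnc1 rose by 1.26 (SE 0.24, adjusted p = 0.00293), with 6.85, 5.36 and 2.72 FPKM on day 6, against 1.29, 1.44 and 1.42 FPKM on day 0. Myl3 was called higher in the same way (0.84, SE 0.20, adjusted p = 0.0109), with 2.38, 0.639 and 1.03 FPKM on day 6, against 0.261, 0.21 and 0.289 FPKM on day 0. Its counts were at 0.26 (SE 0.40, adjusted p = 0.651), and at -0.35 without Notch1-/- day 6 library 1.

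In WT cells all 8 loci passed the test between day 6 and day 0, 4 of them higher and 4 lower, beside 43.1% of all loci called (18.4% higher and 24.7% lower). The troponins Tnni1 and Tnnt2, Actc1 and Myl3 rose. The atrial light chains Myl7 and Myl4, the Myh6/Myh7 locus and Ttn fell. Counts of the days did not overlap for 7 of 8, beside 53.8% of all loci, and limma on log2(FPKM + 1) called 6 of 9, beside 42.6% of all. Under upper quartile scaling, 1 of the 8 was called higher and 4 lower, beside 14.7% of all loci higher and 29.9% lower. The median log2 change was -0.11 over the 8 loci and -0.12 over all loci tested.

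Tnni1 rose most among them, by 4.37 (SE 0.49, adjusted p = 3.16e-05), with 14.9, 14.9 and 11 CPM on day 6, against 0.922, 0.435 and 0.608 CPM on day 0. Tnnc1 rose by 2.01 on the log2(FPKM + 1) scale (SE 0.24, adjusted p = 9.93e-05, limma), with 9.9, 9.14 and 7.11 FPKM on day 6, against 1.26, 1.32 and 1.61 FPKM on day 0. In both, every day 6 library lay above every day 0 library.

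Tnnt2 rose by 1.45 (SE 0.49, adjusted p = 0.0302), with 3.34, 2.95 and 2.62 CPM on day 6, against 1.16, 1.37 and 0.734 CPM on day 0. The groups did not overlap. Its call was lost without WT day 6 library 1 or 2 or WT day 0 library 1 or 3 (changes from 1.23 to 1.5, adjusted p from 0.0579 to 0.104). Actc1 rose by 2.18 (SE 0.79, adjusted p = 0.0414), with overlapping counts of 2.45, 2.57 and 0.521 CPM on day 6, against 0.139, 0.963 and 0.127 CPM on day 0. WT day 0 library 2 was high and WT day 6 library 3 was low, and the call was lost without Notch1-/- day 6 library 1, WT day 6 library 1 or 2, or WT day 0 library 1 or 3 (changes from 1.75 to 2.18, adjusted p from 0.0527 to 0.128).

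Myl3 rose by 1.10 (SE 0.41, adjusted p = 0.0431), with 4.82, 4.99 and 4.74 CPM on day 6, against 2.23, 1.32 and 3.22 CPM on day 0. Its FPKM was 2.09, 2.39 and 2 on day 6, against 0.288, 0.18 and 0.246 on day 0 (1.35, SE 0.20, adjusted p = 0.000461, limma on log2(FPKM + 1)). Neither measure overlapped between days. The count call was lost without any WT day 6 library, Notch1-/- day 0 library 2 or 3, or WT day 0 library 1 or 2 (changes from 0.84 to 1.13, adjusted p from 0.0507 to 0.123).

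Myl7 fell by 1.43 (SE 0.41, adjusted p = 0.0137), with 1.23, 1.11 and 1.18 CPM on day 6, against 2.89, 4 and 2.61 CPM on day 0. Myl4 fell by 1.54 (SE 0.43, adjusted p = 0.0124), with 1.41, 1.44 and 0.658 CPM on day 6, against 4.2, 3.71 and 2.27 CPM on day 0. No day 6 library of either reached a day 0 library. The Myl7 call was lost without WT day 6 library 2 (-1.38, adjusted p = 0.0524), and the Myl4 call without WT day 6 library 3 (-1.24, adjusted p = 0.0548). By limma on log2(FPKM + 1) neither was called, with Myl7 at -0.90 (adjusted p = 0.0709) and Myl4 at -0.66 (adjusted p = 0.117). By limma with a pseudocount of 0.1, Myl7 was called (-1.30, adjusted p = 0.0241) and Myl4 was not (-1.05, adjusted p = 0.0822).

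The Myh6/Myh7 locus fell by 1.33 (SE 0.34, adjusted p = 0.00727), with 3.15, 3.56 and 4.76 CPM on day 6, against 8.53, 6.55 and 13.8 CPM on day 0. Ttn fell by 2.61 (SE 0.40, adjusted p = 0.000274), with 4.08, 3.84 and 4.57 CPM on day 6, against 14.7, 31 and 30.8 CPM on day 0. Both kept their call in all 20 alternatives. Of 18 tested markers of the fibroblasts that can serve as feeders, 3 were higher and 9 lower on day 6 in WT cells, beside 18.4% and 24.7% of all loci. Their median change was -1.25, with a summed level of 5030 to 6060 CPM on day 6 and 3660 to 7240 CPM on day 0. In Notch1-/- cells, where neither locus was called between days, 1 of these markers was higher and 15 were lower, beside 17.2% and 18.7% of all loci. The median change of the markers there was -4.40, with a summed level of 2630 to 4860 CPM on day 6 and 2900 to 4820 CPM on day 0. None of the 18 was at 0 in any group, and their part in the result was not tested.

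The difference between the day changes of the genotypes was tested as an interaction. It was called for 3 of the 8 loci, Myl7, Tnni1 and Ttn, beside 11.3% of all loci (6.36% higher and 4.92% lower). Limma on log2(FPKM + 1) called Myl7 and Tnni1, 2 of 9, beside 13.6% of all. For Myl7 the Notch1-/- change exceeded the WT change by 2.84 (SE 0.58, adjusted p = 0.0082), and it had opposite signs in the genotypes. For Tnni1 the Notch1-/- change was smaller, by -3.74 (SE 0.63, adjusted p = 0.00286). For Ttn, with a change of -0.30 in Notch1-/- cells that was not called (adjusted p = 0.573), the difference was 2.32 (SE 0.54, adjusted p = 0.0159). The interaction of Ttn was 0.58 and not called by limma on log2(FPKM + 1) (SE 0.22, adjusted p = 0.11). All 3 were called whichever library was left out. Actc1, Tnnt2, Myh6/Myh7, Myl4 and Myl3 had differences from -0.84 to 1.41, with adjusted p from 0.385 to 0.795.

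The members did not vary as a single group across the libraries. Over the 12 libraries, which share the 4 groups, Pearson's r of log2 CPM was 0.82 between Tnni1 and Tnnt2 and 0.77 between Tnni1 and Myl3. It was 0.74 between Myh6/Myh7 and Ttn, -0.59 between Myl7 and Tnni1, and -0.84 between Actc1 and Myh6/Myh7. Among 8677 loci linked to a gene and averaging at least 1 in log2 CPM, those most like Myl7 were Cdk5rap1 (r = 0.907), Bicdl1 (0.896), Aplp2 (0.892), Aldh9a1 (0.888) and Tti1 (0.884). Those most like Tnnt2 were Gem (r = 0.934), Dsp (0.923), Pde10a (0.922), Runx3 (0.911) and Gata3 (0.89). These correlations are descriptions of 12 points that share the group differences.

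Other genes of the sarcomere and of heart muscle were counted from lists, in Notch1-/- against WT embryoid bodies on day 6, beside the 13.7% of all loci called higher and 14.4% called lower. Of 8 other thick filament genes tested, 2 were higher, Myl2 and Mylpf, and 2 lower, Myom1 and Myh10. The locus of Mylpf, a light chain of fast muscle, holds 43.6 kb of merged exon that shares 76.7% of its length with other loci, and its FPKM is listed at 0 in 6 of 12 libraries, so its value is not given. Myom1, which cross-links thick filaments at the M-band, was at -0.81 (SE 0.25, adjusted p = 0.0263). Myh10, at -0.69 (SE 0.18, adjusted p = 0.0116), encodes a non-muscle myosin heavy chain and is no marker of sarcomeres. Of 7 other thin filament genes, 1 was higher, Acta1, and 3 were lower. Tmod1, which caps the thin filament, was at 1.48, 1.11 and 0.849 CPM in Notch1-/- and 8.97, 10.8 and 9.13 CPM in WT embryoid bodies, a log2 change of -3.07 (SE 0.39, adjusted p = 0.000138). Tropomyosin Tpm1 was at -0.95 (SE 0.18, adjusted p = 0.00196), and Nebl, a nebulin relative of the heart, at -1.36 (SE 0.29, adjusted p = 0.00405).

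Of 15 genes of the Z-disc, costamere and sarcomere assembly, 5 were higher and 4 lower in Notch1-/- embryoid bodies. Actn2, which anchors actin at the Z-disc, had 7.16, 10.2 and 12.9 CPM in Notch1-/- and 3.59, 3.67 and 3.78 CPM in WT embryoid bodies (1.46, SE 0.26, adjusted p = 0.00143). Smyd1, a muscle methyltransferase needed for sarcomere assembly, was lower in all Notch1-/- libraries, at 0.513, 0.632 and 0.789 CPM, against 3.21, 3.23 and 3.04 CPM in WT embryoid bodies (-2.29, SE 0.29, adjusted p = 0.000151). Of 13 genes of calcium handling, channels and natriuretic peptides, 1 was higher, the calcium pump Atp2a2 (0.48, SE 0.14, adjusted p = 0.0247). Lower were 2, Popdc2 (-3.67, SE 0.54, adjusted p = 0.000387) and the calcium release channel Ryr2 (-0.86, SE 0.23, adjusted p = 0.015). Atp2a2 averaged 2.73 CPM per kb but 72.4 FPKM in Notch1-/- embryoid bodies, so its merged exon length is long for its transcript. It already averaged 109 CPM in Notch1-/- and 97.7 CPM in WT cells on day 0.

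Cardiac transcription factors, which switch on sarcomere genes in the developing heart, were counted as well. Of 19 listed, 11 had a linked locus and were tested. Gata4, Hand1, Hand2, Mesp1, Mesp2, Srf, Hopx and Tbx2 had none, so their levels are not known here. Of the 11 tested, 0 were higher and 7 were lower in Notch1-/- embryoid bodies, beside 28.1% of all loci called. Their median change was -2.24, against 0.01 over all loci. Mef2c, which binds the promoters of many muscle genes, had 0.963, 1.41 and 1.57 CPM in Notch1-/- and 11.5, 10.4 and 9.85 CPM in WT embryoid bodies (-3.01, SE 0.29, adjusted p = 1.71e-05). Tbx20, which the forming heart tube needs, had 31, 29.6 and 6.98 CPM in Notch1-/- and 322, 287 and 187 CPM in WT embryoid bodies (-3.56, SE 0.49, adjusted p = 0.000228). Isl1, a factor of second heart field progenitors, was at -3.34 (SE 0.43, adjusted p = 0.000163). Isl1 had 6.44, 7.77 and 1.73 CPM in Notch1-/- and 57.7, 59.7 and 43.4 CPM in WT embryoid bodies. The factors and the members showed no single order over the Notch1-/- libraries. Tbx20, Isl1, Tnni1, Tnnt2, Actc1 and Myl4 were lowest in library 3, whereas Mef2c, Ttn and the Myh6/Myh7 locus were highest there. Myl7 and Myl3 were lowest in library 2. Any relation between the factors and the members was not tested. On day 6 against day 0, 3 of the 11 factors were higher and 1 lower in Notch1-/- cells, beside 35.9% of all loci called, and 8 were higher and 0 lower in WT cells, beside 43.1% of all.

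**Figure D4:**
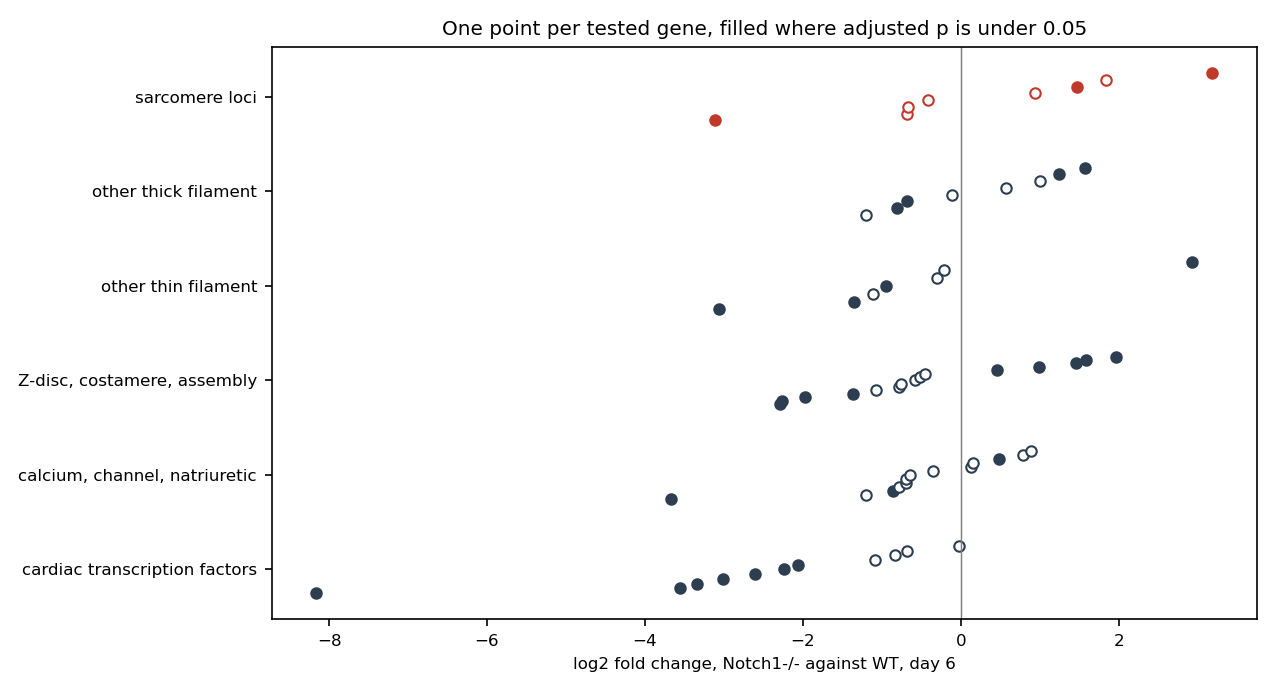
Log2 fold change of counts in Notch1-/- against WT embryoid bodies on day 6, 1 point per tested gene and filled where the adjusted p is under 0.05, for the sarcomere loci (red) and 5 lists of other heart muscle genes (dark). The sarcomere loci lie on both sides of 0, and the called cardiac transcription factors all lie below it.

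Several members are also used outside the heart, and markers of other cell types were counted on day 6, again beside 28.1% of all loci called. Of 10 smooth muscle markers, 1 was higher and 3 were lower in Notch1-/- embryoid bodies, with a summed level of 285 to 319 CPM in Notch1-/- and 649 to 876 CPM in WT embryoid bodies, and 1 of 11 linked loci was at 0 in each group. Acta2, smooth muscle actin, had 3.35, 3.75 and 6.13 CPM in Notch1-/- and 375, 458 and 319 CPM in WT embryoid bodies (-6.44, SE 0.55, adjusted p = 7.85e-06). Calponin Cnn1 went the other way, at 2.40 (SE 0.37, adjusted p = 0.000525). Of 6 skeletal muscle markers, 2 were higher and 1 lower, and their summed level was 1.4 to 1.56 CPM in Notch1-/- and 1.48 to 2.29 CPM in WT embryoid bodies, with 0 of 9 linked loci at 0 in Notch1-/- and 1 of 9 in WT. Of 18 fibroblast markers, 1 was higher and 9 were lower, with summed levels of 2630 to 4860 CPM in Notch1-/- and 5030 to 6060 CPM in WT embryoid bodies and none at 0.

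Endothelial and blood markers were lower for 10 of 12 in Notch1-/- embryoid bodies, at 138 to 314 CPM in all, against 465 to 799 CPM in WT embryoid bodies. Visceral endoderm markers were lower for 6 of 9, at 23.7 to 55.7 CPM in Notch1-/- and 205 to 283 CPM in WT embryoid bodies. Pluripotency markers were higher for 2 of 8, at 530 to 771 CPM in Notch1-/- and 379 to 498 CPM in WT embryoid bodies. These 8 were the linked ones of 12 listed, and Pou5f1, Sox2, Utf1 and Dppa5a had no linked locus. No linked locus of these 3 lists was at 0 in either group. The part of these cell types in the changes of the sarcomere loci was not tested.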

How the data were processed

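RNA was measured in 12 libraries, 3 per group, grouped by genotype and day from the sample titles. The build named is mm9, and the tools listed in the submitters' processing notes are DESeq, HTSeq 0.5.4p3, Cufflinks 2.1.1 and TopHat2 2.0.8. How strand was handled and what was filtered is not given there. The deposited count table holds whole numbers, raw counts by their values, for each merged locus. The FPKM table deposited by the authors holds the same loci, scaled by transcript length and library size. The deposited transcript models hold other values, the exon starts and ends.

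Symbols were linked to loci through exon and intron lengths of GENCODE vM21 transcripts, and no coordinates were converted: 15986 of 40039 loci were linked to 1 gene. A check against wrong chromosomes gave 36 false links in 39775 loci. Gene names rest on this inference. A link needed an exon with introns on both sides, so a gene without one could not be linked. Listed genes without a linked locus were left out of all counts.

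Counts were tested with edgeR 4.0.16 (R 4.3.3, quasi-likelihood, TMM, default filter for low counts, 23991 loci) in 1 fit over 12 libraries, and log2(FPKM + 1) with limma 3.58.1 over 20055 loci with FPKM of at least 0.1 in 3 libraries; the second understates changes of low genes. The fit was tested on simulated data for the day 6 genotype comparison (22956 loci): it recovered 14.7% of 95 loci changed by 1 on the log2 scale and 58.5% of 94 changed by 2, with 1 false call. Only these few loci were changed in the simulation, whereas 28.1% of all loci were called in the real comparison. The adjustment of p depends on that share, so these rates do not apply to the real fit. Alternatives were upper quartile scaling, DESeq2 1.42.0, no filter, a pseudocount of 0.1, fits of the compared groups alone, a replicate block and leaving out each library; levels over unshared exon length were added after seeing the data. TMM factors were 0.908 to 1.14. Replicates of a group differed with a chi-square of 41.3 to 404 per degree of freedom, so counting error was small beside the spread.

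Replicate numbers of the titles were checked for pairing. The submitters' own library names carry numbers that do not always follow those of the titles, so libraries with the same replicate number need not be pairs. On day 0, same-numbered libraries of the genotypes correlated at 0.398, 0.275 and 0.165 in their deviations, and differently numbered ones at -0.309 to 0.132. The main fit did not use this pairing. The replicate block was an alternative, fitted over all 12 libraries at once. The members, lists and named genes (all members, Notch1, up to 4 genes of each list with the smallest p, paralogs and the 5 loci most like Myl7 and Tnnt2) were chosen with earlier results of these data known. Of the paralog pairs, Tnni3 had no linked locus and is not used here. A gene that this rule names is not reported here.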

Additional observations from a re-analysis of the deposited data

Results flagged for a closer look

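The change between day 6 and day 0 differed between the genotypes for 3 of the 8 sarcomere loci tested, beside 11.3% of all loci. For Myl7 the difference of the log2 changes, Notch1-/- minus WT, was 2.84 (SE 0.58, adjusted p = 0.0082, edgeR), with 1.41 in Notch1-/- and -1.43 in WT cells. For Tnni1 it was -3.74 (SE 0.63, adjusted p = 0.00286), with 0.63 in Notch1-/- and 4.37 in WT cells. For Ttn it was 2.32 (SE 0.54, adjusted p = 0.0159), with -0.30 in Notch1-/- and -2.61 in WT cells.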

How the results depend on the processing

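For Notch1-/- against WT on day 6, 5 members were called by a fit of these groups alone (11055 loci called, 52.8% of 20940). Limma on log2(FPKM + 1) also called 5 (28.1% of all loci). The main fit called 3 (6741 loci, 28.1%). On day 0, 0 members were called under upper quartile scaling (9.12% of all loci) and 0 by a fit of these groups alone (706 loci, 3.25%). Limma called 0 on log2(FPKM + 1) (1520 loci, 7.58%) and 0 on log2(FPKM + 0.1) (8.56%). DESeq2 called 2 (3689 loci, 12.1%), and the main fit called 1 (2294 loci, 9.56%). Day 6 against day 0 gave 1 member in Notch1-/- cells by a fit of those groups alone (35.8% of all loci), in place of 3 (35.9%). In WT cells it gave 5 under upper quartile scaling (10716 loci, 44.7%), in place of 8 (10342 loci, 43.1%). The cause was not tested. With a minimum of 5 CPM per kb, 0 members were expressed in Notch1-/- and 0 in WT embryoid bodies, and with FPKM of at least 1, 5 in WT.

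With the replicate block, 3 members were called on day 0 (3335 loci, 13.9% of all) and 4 on day 6 (7666 loci, 32%). On day 6 Ttn was added at 0.88 (adjusted p = 0.0456). Between days the block gave 4 in Notch1-/- cells (9395 loci, 39.2%), with Myh6/Myh7 added at -0.81 (adjusted p = 0.0272). The block also gave 8 in WT cells (11014 loci, 45.9%) and 3 for the interaction (3230 loci, 13.5%). Between genotypes on day 6, same-numbered libraries correlated at -0.011 to 0.118 and differently numbered ones at -0.166 to 0.082, which overlapped. Between days in Notch1-/- cells the values were -0.032 to 0.172 and -0.175 to 0.11, which also overlapped. Between days in WT cells they were 0.048 to 0.13 and -0.116 to -0.018. There every same-numbered pair exceeded every other pair, though the correlations were weak.

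Leaving out each library gave 2 to 4 members and 4285 to 8002 loci on day 6, 0 to 1 and 1124 to 5983 on day 0, 1 to 4 and 6372 to 9990 between days in Notch1-/- cells, 4 to 8 and 7923 to 11586 in WT cells, and 3 to 3 and 1434 to 3943 for the interaction. Directions reversed only for changes that were not called. On day 0, Tnnt2 was at 0.05 and 0.08 without Notch1-/- or WT library 2 (range -0.42 to 0.08), Actc1 at -0.21, 0.00 and -0.01 without Notch1-/- library 3 or WT library 1 or 3 (range -0.21 to 2.03), and Myl3 at -0.10 without WT library 2 (range -0.10 to 0.50). Between days in Notch1-/- cells, Myl3 was at -0.35 without day 6 library 1 (range -0.35 to 0.58) and Ttn at 0.19 without day 0 library 3 (range -0.58 to 0.19). The interaction of Actc1 was -0.22 without WT day 0 library 2 (range -0.22 to 2.03). Tnnc1 had no counts to test, and Actc1 had 15 to 113 counts in WT day 0 libraries, which limits its precision.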
